A study of Mus musculus with 8 samples.

Results

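The genes described here build and run the DNA replication machinery or supply its nucleotides, in 2 mouse cell lines, LLC1 and MLE12. They were taken by gene name from the deposited table of raw counts, which gave 39 genes of 43346, each name occurring once. All 39 were tested, with at least 2973 counts over the LLC1 libraries and at least 4445 over the MLE12 libraries, so none rested on a handful of reads. As background, the Lewis lung carcinoma line LLC1 arose in a C57BL mouse. The epithelial line MLE12 came from lung tumours of mice with an SV40 large T antigen transgene driven by a human surfactant protein C promoter. Per the labels both came from ATCC and were grown to about 80% confluence without treatment, and each is 1 line represented by 4 libraries (replicates 1 to 4). Large T antigen binds the retinoblastoma family proteins, and its presence cannot be told apart from any other difference between the lines.

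Depth per library was 46840648 to 55285307 counts in LLC1 and 48643667 to 76722481 counts in MLE12. The lung epithelial markers Nkx2-1, Sftpc, Sftpb, Cdh1 and Epcam were all lower in LLC1, where their summed level was 1.62 to 1.78 CPM (counts relative to the scaled library total), against 348 to 369 CPM in MLE12. Epcam was low in both lines (0.0235 CPM on average in LLC1, 3.36 CPM in MLE12). Of 5 mesenchymal genes, Vim, Col3a1 and Pdgfra were higher in LLC1, Col1a1 was lower, and Thy1, with no count in LLC1, was too low to test. Together they summed to 5274 to 5680 CPM in LLC1 and 934 to 984 CPM in MLE12. Among immune and endothelial markers, the defining genes Ptprc, Cd3e, Pecam1, Cdh5 and Kdr averaged 0.247 CPM or less in both lines, while Csf1r, Cd68 and, in MLE12, Tek were above that level. The 4 endothelial markers summed to 0.457 to 0.898 CPM in LLC1 and 3.02 to 3.78 CPM in MLE12.

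Replication starts when the MCM helicase is loaded onto origins with the help of Cdc6 and Cdt1, and is switched on in S phase by Cdc45 and the GINS complex. Primase and polymerase alpha lay down primers, the RFC complex loads the Pcna clamp, and polymerases delta and epsilon extend the strands, while ribonucleotide reductase, thymidylate synthase and thymidine kinase supply the building blocks. Most of these genes are classical targets of E2F transcription factors, which pocket proteins of the retinoblastoma family hold in check until S phase.

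Most of the module was lower in LLC1 than in MLE12, by modest amounts. Of the 39 members, 27 were lower in LLC1 (69.2%) and 6 were higher (15.4%), and 6 did not pass the test. The corresponding shares of all 18546 genes tested were 40.9% lower in LLC1 and 40.7% higher, together 81.6%. A gene was called where edgeR's quasi-likelihood test gave a Benjamini-Hochberg adjusted p under 0.05 across all genes. Fold changes are of LLC1 over MLE12 on the log2 scale, given ± SE. The members' median log2 fold change was -0.49, against 0.02 over all genes tested. Every LLC1 library lay below every MLE12 library for 26 members (66.7%, against 38.7% of all genes) and above for 6 (15.4%, against 37.7%). In absolute size the differences were smaller than over all genes tested, with a median of 0.50 on the log2 scale for members and 0.74 for all genes. The genes tested include some with far fewer counts than any member, and genes of matched level were not compared.

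**Figure D1:**
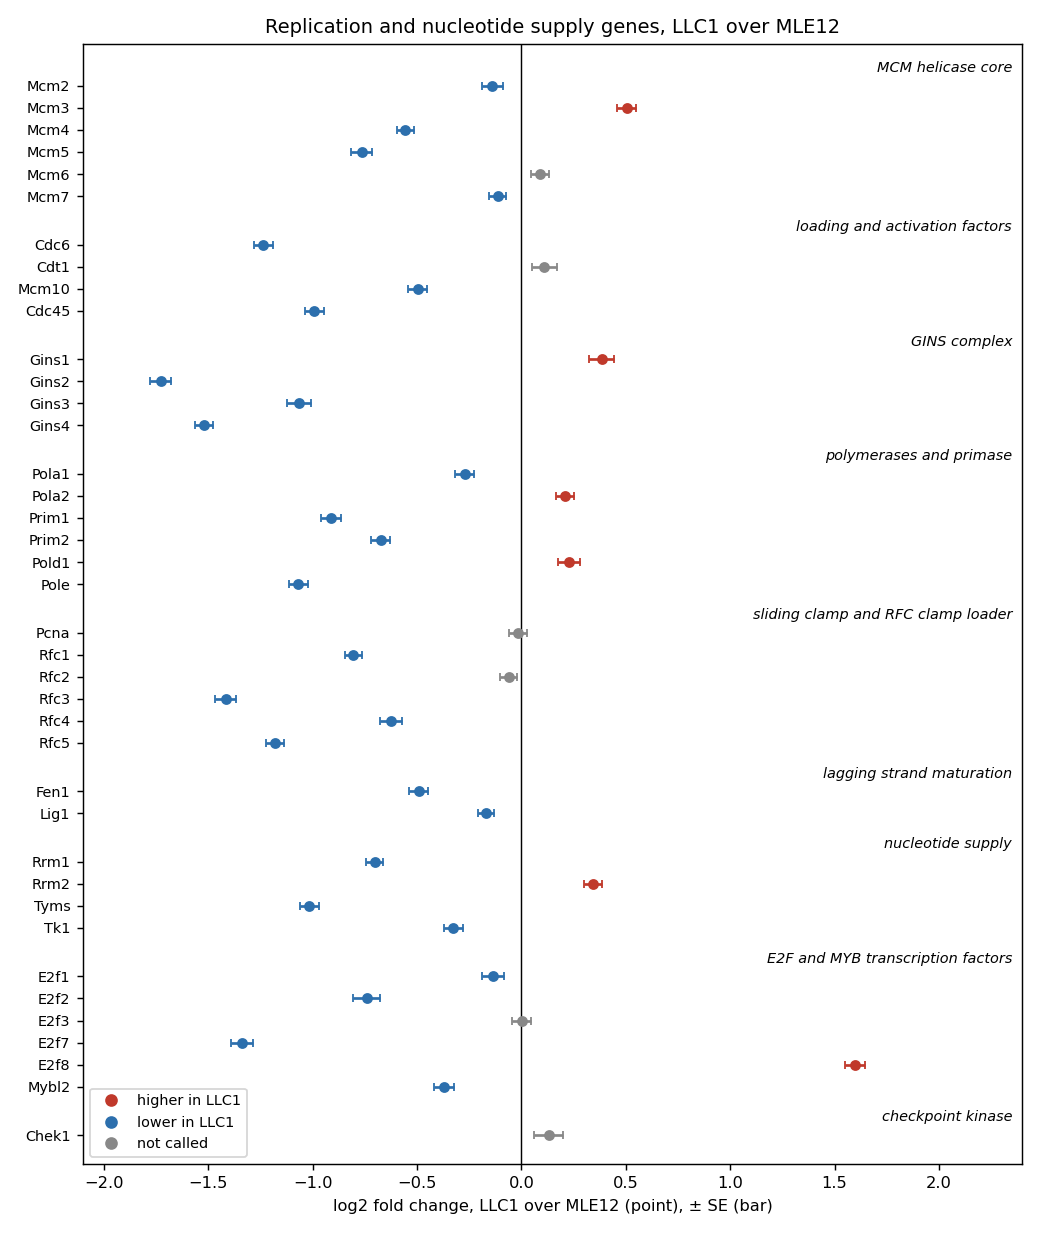
Log2 fold changes of the 39 genes, LLC1 over MLE12, with points for the estimate and bars for ± SE, grouped by role and coloured by call. Most points lie left of 0, down to Gins2 at -1.73, and E2f8 stands alone on the right at 1.60.

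Few members differed by more than 2-fold. Tested against that minimum with edgeR's glmTreat, 1 member was higher in LLC1 (E2f8), where 16.7% of all genes passed. On the lower side 6 members passed (Gins2, Gins4, Rfc3, E2f7, Cdc6 and Rfc5), where 16.9% of all genes passed. Together that is 17.9% of the members and 33.7% of all genes. With library totals in place of scaled totals the lower side grew to 10 members. In RNA of whole cultures, fewer cells in S phase and less RNA per cell cannot be told apart. Whether the 4 libraries per line are from separate cultures is not stated in the labels, so p-values reflect only the spread among them, which may be technical.

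The MCM2-7 subunits, which form the helicase ring in equal numbers, divided between the lines. Mcm4, Mcm5, Mcm2 and Mcm7 were lower in LLC1, Mcm3 was higher, and Mcm6 did not pass the test. Mcm5 stood at 186, 186, 216 and 202 CPM in the LLC1 libraries, against 344, 337, 341 and 320.3 CPM in the MLE12 libraries. The lines were fully separated (-0.76 ± 0.05 on the log2 scale, adjusted p = 3.19e-11). Mcm3 ran the other way, at 331, 323, 369.5 and 339 CPM in LLC1, against 241, 242, 241 and 237 CPM in MLE12 (0.50 ± 0.04, adjusted p = 3.59e-09). Mcm4 stood at a mean of 178 ± 5.88 CPM in LLC1 libraries and 261 ± 4.76 CPM in MLE12 libraries (SD, n = 4 each, as for all means here; -0.56 ± 0.04). Mcm2 stood at 192, 192, 208 and 213 CPM in LLC1, against 229, 235, 221 and 203 CPM in MLE12 (-0.14 ± 0.05). Mcm7 stood at 301, 289.7, 316 and 308 CPM in LLC1, against 331, 324, 335 and 322 CPM in MLE12 (-0.11 ± 0.04). These were small differences. The Mcm2 libraries of the lines overlapped, and both calls ended with upper-quartile scaling (adjusted p = 0.139 and 0.199), when genes needed 1 CPM in 4 libraries (0.111 and 0.141) and without LLC1 replicate 1 (0.107 and 0.102) or LLC1 replicate 2 (0.0679 and 0.0783). Mcm7 also lost its call without LLC1 replicate 4 (0.0611). Mcm6, at a mean of 289 ± 15.2 CPM in LLC1 libraries and 272 ± 4.40 CPM in MLE12 libraries (0.09 ± 0.04, adjusted p = 0.0642), was called higher in LLC1 with upper-quartile scaling (0.00323), with that filter (0.00437) and without LLC1 replicate 1 (0.0379) or 2 (0.0281).

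Within the ring, the leading subunit differed between the lines. Per length, as RPKM (CPM per kilobase of the length given in the table), Mcm3 was highest in LLC1 (90.7 RPKM), and Mcm5 highest in MLE12 (98.1 RPKM). Mcm4 was lowest in LLC1 (49.5 RPKM), and Mcm6 lowest in MLE12 (58.2 RPKM). The highest subunit was 1.83 times the lowest in LLC1 and 1.69 times in MLE12. The ratio of Mcm3 to Mcm5 in a library, which no scaling of libraries can move, was 1.53 to 1.62 in LLC1 and 0.638 to 0.674 in MLE12. This ratio and those given further on were picked after the values were seen and carry no test. Levels per length rest on the gene models: with exon lengths from the later GENCODE M21 annotation Mcm2 became the lowest subunit in both lines and the highest was 3.14 times the lowest in LLC1 and 2.64 times in MLE12, while Mcm3 and Mcm5 kept their places at the top. The Mcm7 model shares 7.25% of its exon bases with Ap4m1 and 1.45% with Cops6, both on the opposite strand.

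**Figure D2:**
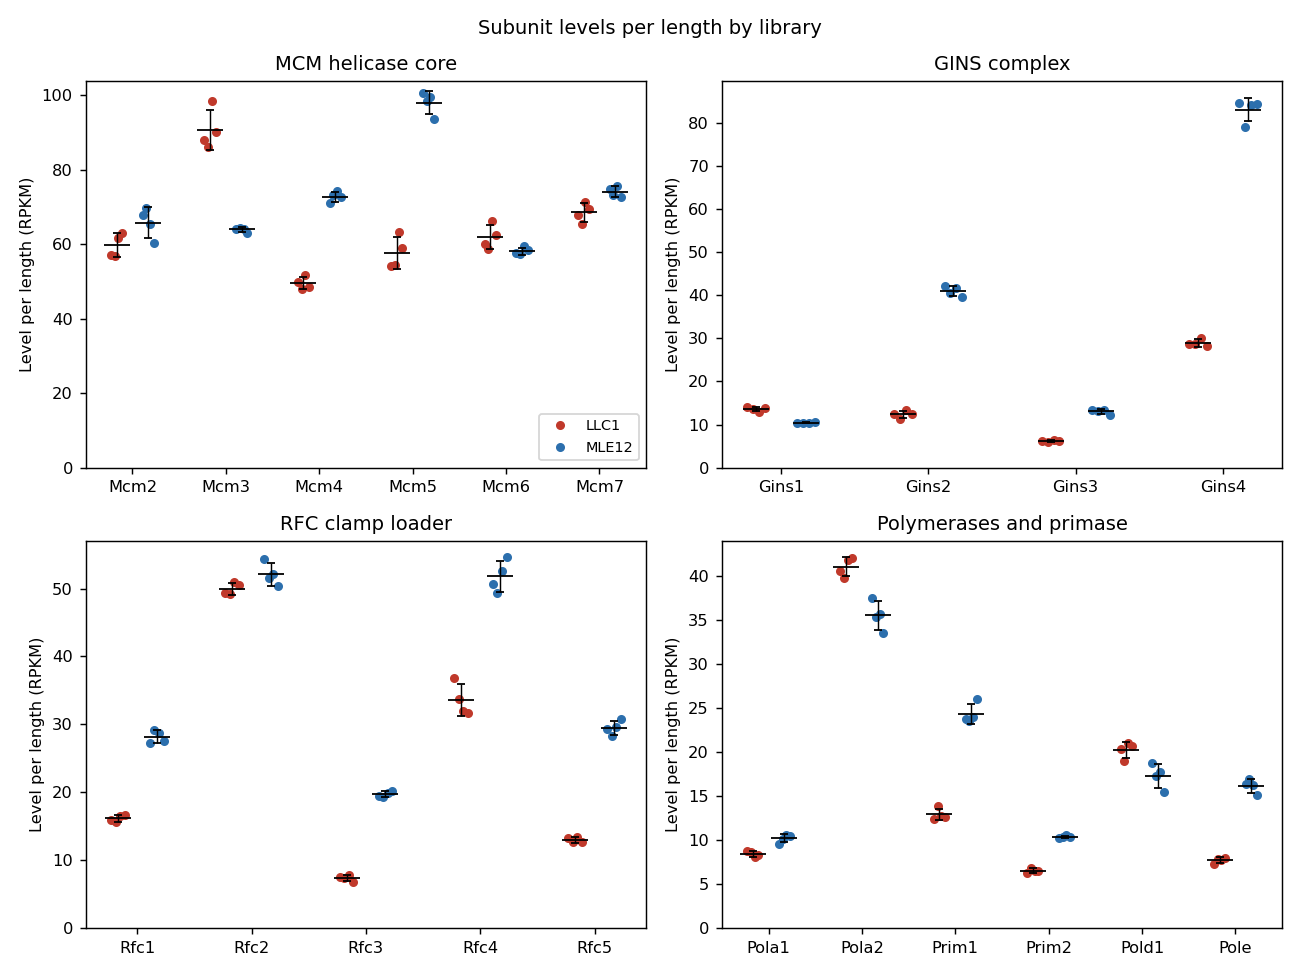
Levels per length (RPKM) in each library, LLC1 in red to the left of MLE12 in blue, for the MCM, GINS and RFC subunits and the polymerases with primase. Points are libraries, black bars mean ± SD (n = 4). As folds, Gins2 (3.32) and Gins4 (2.87) differ most between the lines, while Gins1, Mcm3, Pola2 and Pold1 are higher in LLC1.

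Of the loading and activation factors Cdc6, Cdt1, Mcm10 and Cdc45, Cdc6 differed most. Cdc6, which brings MCM to the origin, stood at 31.0, 31.2, 30.5 and 32.6 CPM in LLC1, against 75.3, 74.6, 72.1 and 73.5 CPM in MLE12 (-1.24 ± 0.04, adjusted p = 2.47e-15). Its loading partner Cdt1 did not pass the test (a mean of 133 ± 12.7 CPM in LLC1 libraries and 123 ± 6.28 CPM in MLE12 libraries; 0.11 ± 0.06, adjusted p = 0.0961), and its libraries overlapped. Cdt1 was called higher in LLC1 with upper-quartile scaling (adjusted p = 0.0142), with at least 1 CPM in 4 libraries (0.0194) and without LLC1 replicate 1 (0.0128) or 2 (0.0387). Cdc45, the helicase co-activator, was lower in LLC1 (a mean of 44.0 ± 2.24 CPM in LLC1 libraries and 87.6 ± 1.35 CPM in MLE12 libraries; -0.99 ± 0.05). Mcm10, which acts when the helicase is switched on, was lower too (a mean of 53.6 ± 2.51 CPM in LLC1 libraries and 75.6 ± 1.60 CPM in MLE12 libraries; -0.50 ± 0.05). The Cdc45 model shares 5.96% of its exon bases with Ufd1l on the opposite strand, so reads there cannot be assigned.

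The GINS complex held the largest drop of the module and 1 subunit that went against it. Psf2, the product of Gins2 (ENSMUSG00000031821, chromosome 8, 120578633 to 120589304, mm10), assembles with the other 3 subunits into the helicase co-activator. Gins2 stood at 51.2, 46.1, 54.5 and 50.8 CPM in LLC1, against 173, 166, 171 and 162 CPM in MLE12, and was 3.32-fold lower in LLC1 (-1.73 ± 0.05, adjusted p = 8.19e-17). Gins4 (ENSMUSG00000031546, chromosome 8, 23226610 to 23237668) stood at 38.99, 39.1, 41.2 and 38.6 CPM in LLC1, against 115, 108, 115 and 115 CPM in MLE12, and was 2.87-fold lower (-1.52 ± 0.04, adjusted p = 8.76e-17). Both passed the 2-fold test, and neither gene's libraries came near each other. Gins3 (ENSMUSG00000031669, chromosome 8, 95633559 to 95645059) stood at 15.2, 14.3, 15.5 and 15.2 CPM in LLC1, against 32.3, 31.7, 32.3 and 29.6 CPM in MLE12 (-1.07 ± 0.06, adjusted p = 1.51e-12). Its fold of 2.09 did not pass the test against 2-fold (glmTreat adjusted p = 0.125). Gins1 (ENSMUSG00000027454, chromosome 2, 150905400 to 150931280) was higher in LLC1, at 21.4, 20.6, 19.5 and 21.0 CPM, against 15.8, 15.7, 15.7 and 16.1 CPM in MLE12 (0.38 ± 0.06, adjusted p = 6.93e-06), with no overlap.

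Within every library the GINS subunits were less even in MLE12 than in LLC1. Gins4 was the highest per length in both lines (28.9 RPKM in LLC1 and 83.0 RPKM in MLE12). The lowest was Gins3 in LLC1 (6.24 RPKM) and Gins1 in MLE12 (10.4 RPKM). The highest subunit was 4.63 times the lowest in LLC1 and 7.96 times in MLE12, and the order of the 4 was the same with GENCODE M21 lengths. The ratio of Gins1 to Gins2 in a library was 0.968 to 1.21 in LLC1 and 0.247 to 0.269 in MLE12. Gins2 is the least certain of the 4, because 67.3% of its exon bases lie within exons of Gse1 on the opposite strand in GENCODE M21. Gse1 itself was lower in LLC1 (log2 fold change -1.92), and the strand setting of the counting is not given in the sources used here, so their reads cannot be told apart. Gm20388, which spans Gins2 on the opposite strand with no shared exon base, was lower too (-1.68). Gins1, Gins3 and Gins4 overlap no other gene of the table.

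Gins2, Gins3 and Gins4 share a chromosome on which most genes were lower in LLC1. Of the 969 genes tested on chromosome 8, 666 (68.7%) were lower in LLC1, with a median log2 fold change of -0.72, the lowest among the chromosomes that hold a member. The genes within 1 Mb of each had medians of -1.23 around Gins2 (34 genes), -1.11 around Gins3 (31 genes) and -1.11 around Gins4 (19 genes). Gins1 lies on chromosome 2, where the median was 0.21, and the 30 genes around it had a median of 0.05. Of the other members on chromosome 8, Mcm5 was lower in LLC1 and Cdt1 was not called. The fold changes of Gins2, Gins3 and Gins4 moved with those of their neighbours, and the part of position in the result was not tested.

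**Figure D3:**
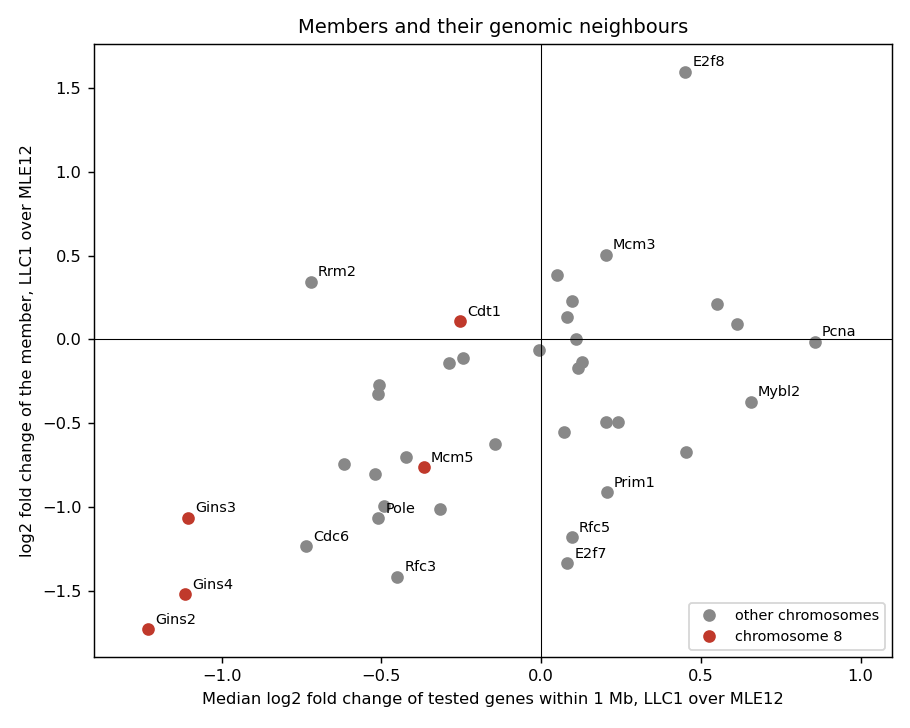
Log2 fold change of each of the 39 genes (vertical) against the median log2 fold change of the tested genes within 1 Mb of it (horizontal), both LLC1 over MLE12, with members on chromosome 8 in red. Gins2, Gins3 and Gins4 lie at the lower left, where the neighbours' medians are -1.23 to -1.11, while E2f7 and Rfc5 are low beside neighbours near 0.

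Polymerase and primase genes were divided in the same way. Pole, the catalytic subunit of the leading strand polymerase epsilon, stood at 80.6, 88.0, 86.6 and 88.3 CPM in LLC1, against 183, 188, 182 and 168 CPM in MLE12 (-1.07 ± 0.05, adjusted p = 5.41e-14). Pold1, the catalytic subunit of polymerase delta, was higher in LLC1, at 98.6, 92.2, 102 and 100.5 CPM, against 90.8, 83.8, 86.1 and 75.2 CPM in MLE12 (0.23 ± 0.05, adjusted p = 0.000754). The ratio of Pold1 to Pole per length was 2.41 to 2.81 in LLC1 and 1.02 to 1.14 in MLE12, without overlap. The primase genes Prim1 (a mean of 49.9 ± 2.53 CPM in LLC1 libraries and 94.0 ± 4.49 CPM in MLE12 libraries; -0.91 ± 0.05) and Prim2 (a mean of 38.5 ± 1.64 CPM in LLC1 libraries and 61.4 ± 0.736 CPM in MLE12 libraries; -0.67 ± 0.05) were lower in LLC1. Pola1, the catalytic subunit of polymerase alpha, was slightly lower (a mean of 74.2 ± 2.96 CPM in LLC1 libraries and 89.7 ± 3.91 CPM in MLE12 libraries; -0.27 ± 0.05). Its partner Pola2 was slightly higher (a mean of 118 ± 3.08 CPM in LLC1 libraries and 102 ± 4.66 CPM in MLE12 libraries; 0.21 ± 0.04, adjusted p = 0.00023). The calls of Pola2 and Pold1 ended with library totals alone (adjusted p = 0.0615 and 0.0566).

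For the clamp and its loader, the clamp message did not pass the test and the loader messages were mostly lower in LLC1. Pcna stood at 159, 145, 155 and 151 CPM in LLC1, against 154, 148, 156 and 159 CPM in MLE12, with overlapping libraries (-0.02 ± 0.04, adjusted p = 0.74). The pseudogene Pcna-ps2 took 15.7% as many counts as Pcna in LLC1 and 13.2% in MLE12, so the split of reads between the copies is uncertain. Rfc3 stood at 27.3, 26.7, 28.1 and 24.4 CPM in LLC1, against 70.3, 69.4, 71.8 and 72.9 CPM in MLE12, a 2.67-fold lower level (-1.42 ± 0.05, adjusted p = 2.21e-15). Rfc5 stood at 62.1, 58.9, 62.5 and 59.0 CPM in LLC1, against 137, 132, 138 and 144 CPM in MLE12 (-1.18 ± 0.04, adjusted p = 4.06e-15). These small subunits passed the 2-fold test, and their libraries were far apart. The large subunit Rfc1 (a mean of 96.8 ± 3.08 CPM in LLC1 libraries and 169 ± 5.55 CPM in MLE12 libraries; -0.81 ± 0.04) and the small subunit Rfc4 (a mean of 51.5 ± 3.63 CPM in LLC1 libraries and 79.5 ± 3.47 CPM in MLE12 libraries; -0.63 ± 0.05) were also lower in LLC1. Rfc2 did not pass (a mean of 75.8 ± 1.33 CPM in LLC1 libraries and 79.1 ± 2.55 CPM in MLE12 libraries; -0.06 ± 0.04, adjusted p = 0.183). With library totals alone Pcna and Rfc2 were called lower in LLC1 (adjusted p = 0.0282 and 0.00676). Rfc4 and Rfc5 share 12.7% and 10.7% of their exon bases with Eif4a2 and Wsb2 on the opposite strand. Per length the highest RFC subunit was 6.78 times the lowest in LLC1 and 2.65 times in MLE12. That contrast turns on the short length the table gives Rfc2, and with GENCODE M21 lengths the values were 4.56 and 4.13.

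Of the Okazaki fragment genes, Fen1 differed by the members' median and Lig1 by little. The flap endonuclease gene Fen1 stood at a mean of 75.8 ± 3.98 CPM in LLC1 libraries and 107 ± 3.02 CPM in MLE12 libraries (-0.49 ± 0.05). DNA ligase 1, encoded by Lig1, stood at a mean of 156 ± 1.91 CPM in LLC1 libraries and 175 ± 4.20 CPM in MLE12 libraries (-0.17 ± 0.04). Both were lower in LLC1 without overlap between the lines. Fen1 shares 78.8% of its exon bases with Gm10143 on the opposite strand, which had 94.6% as many counts as Fen1 in LLC1 and 93.2% in MLE12, so the value of Fen1 is uncertain. On the opposite strand too, Fen1 shares 5.37% with Tmem258 (log2 fold change 0.87) and Lig1 shares 5.79% with 6330408A02Rik (1.05). The latter had 9.91% as many counts as Lig1 in LLC1 and 4.21% in MLE12.

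Nucleotide supply genes were lower in LLC1 with the exception of Rrm2. Ribonucleotide reductase needs a large subunit, Rrm1, and a small one, Rrm2. Rrm1 stood at 213, 209, 223 and 213 CPM in LLC1, against 333, 350.2, 361 and 353 CPM in MLE12 (-0.70 ± 0.04, adjusted p = 7e-12). Rrm2 stood at 180.3, 175, 189 and 172 CPM in LLC1, against 136, 139.7, 145 and 144 CPM in MLE12 (0.34 ± 0.04, adjusted p = 4.49e-07). The ratio of Rrm2 to Rrm1 per length was 1.17 to 1.22 in LLC1 and 0.575 to 0.588 in MLE12. With GENCODE M21 lengths, which are longer for Rrm1, it was 3.21 to 3.36 in LLC1 and 1.59 to 1.62 in MLE12. Which subunit is the higher in MLE12 thus depends on the gene model, while the gap between the lines does not. Tyms, thymidylate synthase, stood at 50.8, 50.5, 45.0 and 45.8 CPM in LLC1, against 97.3, 96.3, 98.6 and 96.1 CPM in MLE12 (-1.02 ± 0.05, adjusted p = 1.91e-13). Tk1, thymidine kinase, was lower by less (a mean of 155 ± 6.61 CPM in LLC1 libraries and 194 ± 10.7 CPM in MLE12 libraries; -0.33 ± 0.05).

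The atypical E2F factors E2f7 and E2f8, repressors that act without a DP partner and are often described as a pair, moved in opposite directions. E2f8 (ENSMUSG00000046179, chromosome 7, 48866429 to 48881596) stood at 127, 129, 142 and 136 CPM in LLC1, against 44.4, 44.3, 45.9 and 41.6 CPM in MLE12. It was 3.02-fold higher in LLC1 (1.60 ± 0.05, adjusted p = 1.38e-16), the largest difference in that direction in the module. E2f7 (ENSMUSG00000020185, chromosome 10, 110745439 to 110787384) stood at 20.4, 23.3, 23.6 and 22.7 CPM in LLC1, against 57.6, 55.4, 57.6 and 57.1 CPM in MLE12. It was 2.53-fold lower (-1.34 ± 0.05, adjusted p = 1.14e-14), and both genes passed the 2-fold test. Per length, E2f8 exceeded E2f7 in every library, 9.15 to 10.3 times in LLC1 and 1.21 to 1.32 times in MLE12. The E2f8 model shares 11.2% of its exon bases with Gm2788 on the opposite strand, and Gm2788 had 11.4% as many counts as E2f8 in LLC1 and 9.26% in MLE12.

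The activator E2Fs differed less. E2f2 was lower in LLC1, at 15.1, 16.9, 15.6 and 14.9 CPM, against 27.0, 25.1, 27.6 and 25.0 CPM in MLE12 (-0.74 ± 0.06, adjusted p = 1.78e-09). E2f1 was lower by a small margin (a mean of 42.3 ± 1.49 CPM in LLC1 libraries and 46.5 ± 2.64 CPM in MLE12 libraries; -0.14 ± 0.05, adjusted p = 0.02), a call that ended with upper-quartile scaling (0.170), with at least 1 CPM in 4 libraries (0.128), without LLC1 replicate 1 (0.129) and without MLE12 replicate 1 (0.0631). E2f3 stood at a mean of 52.7 ± 0.713 CPM in LLC1 libraries and 52.7 ± 1.78 CPM in MLE12 libraries, with overlapping libraries (0.00 ± 0.04, adjusted p = 0.997). Mybl2, the MYB factor that works with the MuvB complex in S phase and mitosis, was lower in LLC1 (a mean of 76.9 ± 4.16 CPM in LLC1 libraries and 99.5 ± 4.66 CPM in MLE12 libraries; -0.37 ± 0.05). Chek1, the kinase that restrains replication when forks stall, did not pass (a mean of 30.0 ± 1.86 CPM in LLC1 libraries and 27.5 ± 2.88 CPM in MLE12 libraries; 0.13 ± 0.07, adjusted p = 0.0888). Its MLE12 replicate 4, at 31.7 CPM, stood apart, and Chek1 was called higher in LLC1 without that library (adjusted p = 0.00362), with upper-quartile scaling (0.0182) and with at least 1 CPM in 4 libraries (0.0233).

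**Figure D4:**
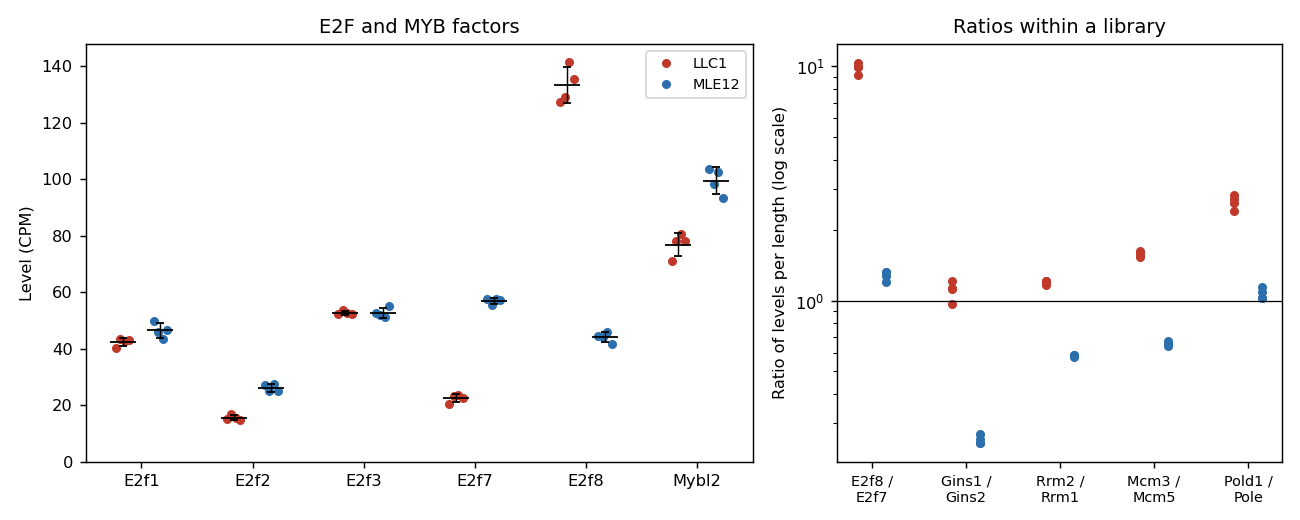
Left, CPM of the E2F genes and Mybl2 in each library, LLC1 in red to the left of MLE12 in blue, with black bars for mean ± SD (n = 4). Right, ratios of levels per length within each library on a log scale, in which LLC1 and MLE12 do not overlap for any of the 5 pairs, the widest gap being E2f8 to E2f7 (9.15 to 10.3 in LLC1 and 1.21 to 1.32 in MLE12).

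E2F motifs were found in a larger share of the members' promoters than of all promoters, a difference that was not tested and that touched members of both directions. The search used the forms TTTCCCGC, TTTCGCGC, TTTGCCGC and TTTGGCGC on both strands of RefSeq promoters (GRCm38.p6, from 250 bases before to 50 after the start), where 32 of the 39 members had an entry. Of these, 14 (43.8%) held a match, against 704 of 27025 genes (2.60%). Those 27025 are all genes with an entry, whether or not they are expressed in these lines. The members belong to a class described above as mostly E2F targets, so the contrast is no independent finding. Matches were present for 9 of 22 members lower in LLC1, 2 of 5 higher and 3 of 5 not called. A CCAAT box was present for 19 of 32 members (59.4%) and 41.1% of genes, and the TTTGAA element of mitotic genes for 7 (21.9%) and 20.2%. Forms of the E2F motif can overlap each other, as at Mcm5 and Mcm6. A match here is a description of letters and says nothing about binding.

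The 250 bases before the start are printed for the member with the largest difference in each direction among those with an entry, and for E2f7, the counterpart of E2f8, added after its values were seen. Gins2 and Gins4, both further down in LLC1 than Rfc3, had no entry. Sequences run 5′ to 3′ on the strand of the gene, with matches to the E2F forms in capitals. Rfc3 (chr5:151651209-151651458, minus strand) holds a match that begins 10 bases before its start, and another begins at the start itself, beyond the bases shown. E2f7 (chr10:110745189-110745438, plus strand) holds a match on the reverse strand that begins 198 bases before its start. E2f8 (chr7:48881597-48881846, minus strand) holds no exact match to these forms in its window. Inexact matches were not counted in any promoter, such as attggcgc in E2f8, which differs from TTTGGCGC in its first base.
Rfc3: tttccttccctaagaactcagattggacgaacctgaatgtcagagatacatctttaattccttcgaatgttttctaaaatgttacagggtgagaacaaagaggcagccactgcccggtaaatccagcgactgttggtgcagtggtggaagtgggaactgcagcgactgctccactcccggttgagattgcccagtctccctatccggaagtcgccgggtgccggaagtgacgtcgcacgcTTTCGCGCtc
E2f8: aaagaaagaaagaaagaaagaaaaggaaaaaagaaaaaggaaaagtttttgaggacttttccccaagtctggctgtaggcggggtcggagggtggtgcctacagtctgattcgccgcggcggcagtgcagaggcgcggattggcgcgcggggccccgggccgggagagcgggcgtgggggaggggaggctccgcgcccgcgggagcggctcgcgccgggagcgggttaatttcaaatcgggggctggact
E2f7: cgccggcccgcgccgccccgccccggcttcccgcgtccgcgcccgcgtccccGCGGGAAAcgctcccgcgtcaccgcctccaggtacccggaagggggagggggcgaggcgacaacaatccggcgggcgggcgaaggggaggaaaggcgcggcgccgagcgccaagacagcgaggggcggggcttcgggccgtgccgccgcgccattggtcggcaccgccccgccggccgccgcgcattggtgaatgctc

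Beyond the members, 108 further genes of replication, nucleotide synthesis and their control leaned the same way, by less than the members. Of these, 60 were lower in LLC1 (55.6%, against 40.9% of all genes) and 38 higher (35.2%, against 40.7%). Their median log2 fold change was -0.25. The lowest list medians were those of chromatin assembly, fork factors and E2F partners. Accessory polymerase subunits (median 0.45), purine and pyrimidine synthesis (0.39) and the checkpoint (0.36) leaned the other way. So, by less, did deoxynucleotide supply (0.20) and origin recognition (0.07). The pooled share thus depends on which lists were combined. These counts and those of each list are descriptions. In short lists, shares near 40.9% lower and 40.7% higher are those of all genes.

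Origin recognition genes numbered 3 higher (50%) and 2 lower (33.3%) in LLC1 of 6 (median 0.07), against 40.7% higher and 40.9% lower of all genes. Orc1 (-1.07 ± 0.06) and Orc6 (-0.92 ± 0.05) were lower, and Orc5 (0.81 ± 0.06), Orc3 (0.30 ± 0.05) and Orc4 (0.22 ± 0.08) higher. Of 12 licensing and firing genes (median -0.31) 9 were lower (75%, against 40.9% of all genes) and 1 higher (8.33%, against 40.7%). Those furthest down were the replisome factors Donson (-1.67 ± 0.05) and Wdhd1 (-1.22 ± 0.05) and Dbf4 (-0.40 ± 0.05), the activator of the Cdc7 kinase. Mtbp (1.01 ± 0.04), a partner of the firing factor Ticrr, was higher. The single-strand binding genes Rpa2 (-0.94 ± 0.04) and Rpa1 (-0.30 ± 0.04) were lower and Rpa3 (0.64 ± 0.07) higher. Accessory polymerase subunits went mostly against the module (median 0.45), with 4 of 6 higher in LLC1 (66.7%, against 40.7% of all genes). These were Pole2 (1.04 ± 0.05), Pold4 (0.71 ± 0.07), Pold2 (0.56 ± 0.05) and Pold3 (0.35 ± 0.05). Pole4 (-0.26 ± 0.06) was lower. Polymerase epsilon was therefore mixed, as Pole2 was higher in LLC1 where the catalytic Pole was lower.

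Fork and alternative clamp loader genes (median -0.61) were lower in LLC1 for 12 of 14 (85.7%, against 40.9% of all genes). They were led by the nuclease Dna2 (-1.32 ± 0.05), the checkpoint adaptor Clspn (-1.23 ± 0.05) and Atad5 (-1.14 ± 0.05), which unloads Pcna. Top1 (0.36 ± 0.05) and Rnaseh2c (0.22 ± 0.05) were higher. Chromatin assembly genes (median -0.97) were lower for 5 of 6 (83.3%, against 40.9% of all genes). Chaf1b, a subunit of the histone chaperone CAF-1, stood at a mean of 26.8 ± 1.93 CPM in LLC1 libraries and 129 ± 2.48 CPM in MLE12 libraries (-2.27 ± 0.05, adjusted p = 2.17e-18), and Asf1b (-1.19 ± 0.04) and Slbp (-1.17 ± 0.07), which binds histone mRNA, were also lower. Asf1a (0.24 ± 0.06) was higher. Of the S phase cyclins and kinases (median -0.47) 5 of 6 were lower (83.3%, against 40.9% of all genes). Among them were Ccne2 (-1.25 ± 0.07), Cdk2 (-1.21 ± 0.04) and Ccna2 (-0.53 ± 0.05). Replication checkpoint genes (median 0.36) were higher for 5 of 7 (71.4%, against 40.7% of all genes). Rad1 (1.09 ± 0.06), Atr (0.72 ± 0.05) and Hus1 (0.37 ± 0.06) were at the top, and Chek2 (-0.37 ± 0.07) was lower.

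The other E2F, DP, pocket protein and MuvB genes were lower in LLC1 for 10 of 14 and higher for 3 (median -0.56). Those shares were 71.4% lower and 21.4% higher, against 40.9% and 40.7% of all genes. The DP partners, which activator E2Fs need to bind DNA, were both lower. Tfdp1 stood at a mean of 155 ± 9.61 CPM in LLC1 libraries and 488 ± 13.5 CPM in MLE12 libraries (-1.66 ± 0.05, adjusted p = 7.4e-17), and Tfdp2 at a mean of 49.6 ± 1.86 CPM in LLC1 libraries and 159.8 ± 7.14 CPM in MLE12 libraries (-1.69 ± 0.05). Rb1 (-1.06 ± 0.08) was lower. The repressor E2f6 (a mean of 53.8 ± 1.97 CPM in LLC1 libraries and 13.0 ± 0.649 CPM in MLE12 libraries; 2.05 ± 0.05) was higher, as were E2f5 (0.83 ± 0.07) and E2f4 (0.16 ± 0.05).

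Deoxynucleotide genes outside the module numbered 7 higher (50%) and 6 lower (42.9%) of 14 (median 0.20), against 40.7% and 40.9% of all genes. Dck, the deoxycytidine salvage kinase, stood at a mean of 27.6 ± 1.45 CPM in LLC1 libraries and 111 ± 8.99 CPM in MLE12 libraries (-2.01 ± 0.06, adjusted p = 9.61e-17). The dNTP hydrolase Samhd1 (-1.36 ± 0.04) and the nucleotide kinase Cmpk1 (-0.86 ± 0.12) were also lower. Dctd (1.78 ± 0.06), which makes dUMP for Tyms, the mitochondrial salvage kinase Dguok (1.42 ± 0.07) and Dut (0.56 ± 0.05), which clears dUTP, were higher. Purine, pyrimidine and folate genes (median 0.39) were higher in LLC1 for 11 of 20 (55%, against 40.7% of all genes) and lower for 7 (35%, against 40.9%). The serine hydroxymethyltransferase Shmt1 (a mean of 59.4 ± 1.93 CPM in LLC1 libraries and 7.88 ± 0.229 CPM in MLE12 libraries; 2.91 ± 0.05, adjusted p = 8.6e-20), the mitochondrial folate enzyme Mthfd1l (2.48 ± 0.05) and Shmt2 (1.73 ± 0.04) led them. Ppat (-0.95 ± 0.05), which commits the purine pathway, Ctps (-0.83 ± 0.04) and Umps (-0.75 ± 0.04) were lower.

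**Figure D5:**
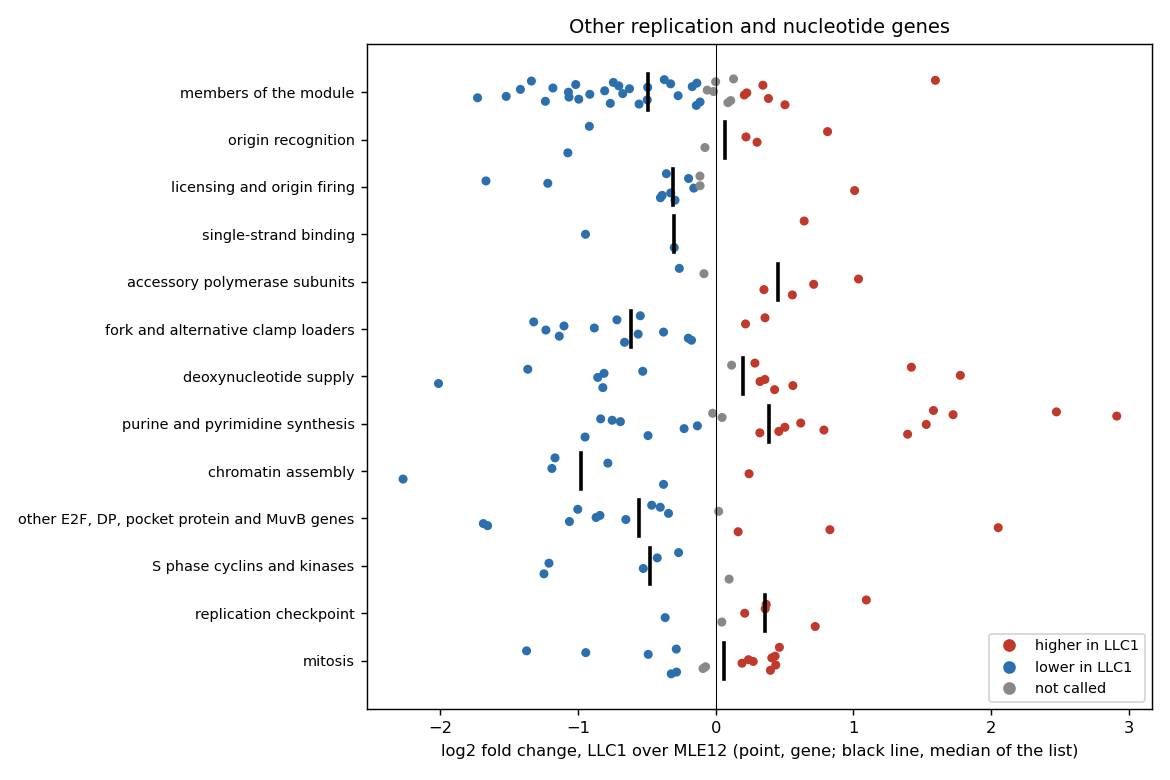
Log2 fold changes, LLC1 over MLE12, of the 39 members (top row) and of the other gene lists, 1 point per gene coloured by call, with a black line at each list's median. The medians run from -0.97 for chromatin assembly to 0.45 for accessory polymerase subunits, and the members' median is -0.49.

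Genes of mitosis went both ways. Of 16 such genes, 8 were higher in LLC1 (50.0%, against 40.7% of all genes) and 6 lower (37.5%, against 40.9%), with a median log2 fold change of 0.06 and summed levels of 2404 to 2440 CPM in LLC1 and 2476 to 2602 CPM in MLE12. Ube2c (0.46 ± 0.05), Aurka (0.44 ± 0.05) and Cenpf (0.43 ± 0.04) were higher in LLC1, and Ttk (-1.37 ± 0.05), Foxm1 (-0.94 ± 0.06) and Cdc20 (-0.49 ± 0.05) lower. The members' summed level was 3910 to 4191 CPM in LLC1 and 4980 to 5130 CPM in MLE12, without overlap.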

How the data were processed

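Sequencing was of paired reads from fragmented poly-A RNA copied with random primers, per the labels' protocols. The authors deposited raw counts per gene. The tools named in the submitters' processing notes are CASAVA, TopHat2, featureCounts and edgeR, and the build is mm10. Versions, strand setting, treatment of multi-mapped reads and annotation release are not given in the sources used here. More genes had a count of 2 than of 1 in each library, as when mates are counted separately. Depth per library was 46840648 to 55285307 counts in LLC1 and 48643667 to 76722481 counts in MLE12.

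The deposited counts entered edgeR 4.0.16 (R 4.3.3). filterByExpr retained 18546 genes, TMM factors ran from 0.924 to 1.045, and LLC1 was compared with MLE12 by glmQLFit (robust) and glmQLFTest without covariates. P-values were adjusted by Benjamini-Hochberg over all genes and called under 0.05. The glmTreat test used a minimum fold of 2. SE was taken as the size of the log2 fold change over the root of F. CPM and RPKM, the latter per kilobase of the length column, were computed from the scaled counts. That length equalled the GENCODE M21 exon union for 27 of 39 members and fell to 0.241 of it for Rfc2. Libraries of the same line differed by more than counting noise (chi-square over its degrees of freedom 6.76 to 58.4), so no library was treated as a repeat deposit of another. This does not show that they are separate cultures.

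Members and lists were chosen with earlier results of these data known. All 39 members are named. From each other list the text names in each direction up to 3 called genes, those that changed most among genes reaching 10 CPM in either line, and other genes it names were chosen after their values were seen. On counts simulated for 18546 genes, the LLC1 against MLE12 fit found 41 of 50 genes set to change 1.5-fold and 50 of 50 at each of 2-fold, 4-fold and 8-fold. Of 16898 unchanged genes that passed the filter again, 18 were called. Few genes were changed there, evenly up and down, whereas 81.6% of genes were called between the lines. Scaling under so wide a change was therefore not tested. Alternatives were DESeq2 1.42.0, limma-voom (limma 3.58.1), scaling by DESeq2 size factors, by upper quartiles or by library totals alone, dropping the filter or asking for 1 CPM in at least 4 libraries, taking out the 20 most abundant genes, the replicate number as a block, and each library left out. GENCODE M21 lengths were added after seeing the data. Protein sequences were not used here.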

Additional observations from a re-analysis of the deposited data

Results flagged for a closer look

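In 78 groups examined (39 members in 2 lines), 2 held a library far from the other 3 of its line, and chance alone gives about 1 in 20. Gins4 stood at 108 CPM in MLE12 replicate 2, against about 115 CPM in the other MLE12 libraries, and its call held whichever library was left out. Chek1 stood at 31.7 CPM in MLE12 replicate 4, against 25.7 to 26.7 CPM in the other MLE12 libraries.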

How the results depend on the processing

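Over the 17 alternatives, 28 of the 33 called members kept their call and direction under all, no called member changed direction, and 10 members gained or lost a call under at least 1. Calls changed for Mcm2, Mcm6, Mcm7, Cdt1, Pola2, Pold1, Pcna, Rfc2, E2f1 and Chek1. The 6 members higher and 27 lower in LLC1 became 9 and 24 with upper-quartile factors or with at least 1 CPM in 4 libraries, and 4 and 29 with library totals alone. The median log2 fold change of the members, -0.49, was -0.44 with upper-quartile factors, -0.44 with at least 1 CPM in 4 libraries, -0.54 with no filter and -0.59 with library totals alone, and -0.51 to -0.45 with a library left out. With library totals alone 10 members passed the 2-fold test as lower, against 6. The median of all genes was -0.08 with library totals alone and 0.07 with upper-quartile factors. Deviations of same-numbered libraries of the 2 lines correlated at -0.148 to 0.155. Replicates 2 and 3 of LLC1 matched their own number best (0.155 against 0.0303 and 0.128 against -0.00151), and replicates 1 and 4 did not (-0.0432 against 0.177 and -0.148 against 0.0843). With 4 libraries per line this cannot settle whether the numbers pair them. With the replicate block the members' counts were again 6 and 27 and the median -0.49.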

Other observations

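The placement of the members on the genome is described here and was not tested. Chromosome 5 held 7 (Mcm7, Pole, Rfc1, Rfc2, Rfc3, Rfc5 and Tyms), of which 6 were lower in LLC1, on a chromosome where 52.8% of 1126 genes tested were lower and the median log2 fold change was -0.27. Chromosome 16 held 3 (Mcm4, Cdc45 and Rfc4), all lower in LLC1, where 58.9% of 555 genes were lower and the median was -0.39. Chromosome 2 held 5 (Mcm10, Gins1, Pcna, E2f1 and Mybl2), of which 3 were lower and 1 higher, where 31.6% of 1539 genes were lower and the median was 0.21. Chromosome 7 held 4, of which 2 were lower and 2 higher, where 44.1% of 1306 genes were lower (median -0.09). Chromosome 1 held 3, of which 1 was lower and 1 higher, where 23.8% of 1384 genes were lower (median 0.48).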
